A study of Mus musculus with 6 samples.

Results

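Fat tissue releases proteins that act on appetite, blood vessels and heat production, and the genes described here encode such proteins together with the receptor of 1 of them. The set was a list of 10 genes. Gdf15, Fgf21, Nrg4, Bmp8b, Angptl6, Nmb, Nucb2 and Vegfa encode secreted factors, and Fgfr1 and Klb encode the receptor and co-receptor of FGF21. Probe sets, the groups of short probes that each measure 1 transcript on the array, were taken by gene symbol from the platform's annotation table. It gave 12 probe sets for 9 of the 10 genes, out of 22690 on the array. No probe set there carried the symbol Gdf15 alone, and probe sets with several symbols were not used. One further probe set, a candidate for Gdf15, had no entry in that table, so its gene could not be checked and it is called the unannotated probe set throughout. With it there were 13 member probe sets.

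The arrays measured RNA of subcutaneous white adipose tissue from mice aged 8 weeks, of mixed C57BL6 and 129 background, that all had a high fat diet for 2 weeks. Control mice (n = 3 arrays) carried YY1flox/flox, the loxP-flanked alleles of the gene for the transcription factor YY1. YY1bKO mice (n = 3 arrays) carried YY1flox/flox with Ucp1Cre, a recombinase driven by sequences of the brown fat gene Ucp1, and the labels call this a brown fat specific knockout. Both groups therefore carried the floxed alleles, and no group had Cre without them, so effects of Cre and of YY1 loss cannot be told apart. The labels do not say that replicates were separate animals, so the p-values reflect only how these samples vary. The comparison asks how this depot differs between the genotypes, in a series titled for secreted proteins and energy expenditure.

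GDF15 is a stress-induced hormone of the TGF-beta family that lowers food intake through the receptor GFRAL in the hindbrain. FGF21, a hormone of fasting and stress, acts on cells that carry both an FGF receptor, in fat mainly FGFR1, and the co-receptor beta-Klotho, the product of Klb. NRG4 is an EGF-like ligand of ERBB receptors made mainly by brown adipocytes, BMP8B is made by brown fat and raises its response to nerve signals, and VEGF-A drives vessel growth. Neuromedin B, encoded by Nmb, is a bombesin-like peptide, Nucb2 encodes the precursor of nesfatin-1, a peptide that reduces feeding, and ANGPTL6 is an angiopoietin-like protein linked to energy expenditure.

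The upstream sequences of 4 member genes are shown because the groups did not overlap in Nrg4, Nmb and Angptl6 and overlapped in Fgf21. They are the 250 bases before each start site in RefSeq (build GRCm38.p6), read 5′ to 3′ on the gene's own strand, which is the minus strand for all 4. RefSeq held such windows for 9 of the 10 member genes. Capitals mark matches to TGATGNAA on either strand, the letters of the composite site of ATF4 and C/EBP factors, which act in the amino acid stress response.
Nrg4 (chr9:55283626-55283875): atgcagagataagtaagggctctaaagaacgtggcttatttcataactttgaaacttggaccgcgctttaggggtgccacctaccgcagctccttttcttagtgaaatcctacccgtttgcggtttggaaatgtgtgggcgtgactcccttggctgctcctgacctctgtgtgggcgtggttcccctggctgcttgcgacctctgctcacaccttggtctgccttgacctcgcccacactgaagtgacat
Nmb (chr7:80905063-80905312): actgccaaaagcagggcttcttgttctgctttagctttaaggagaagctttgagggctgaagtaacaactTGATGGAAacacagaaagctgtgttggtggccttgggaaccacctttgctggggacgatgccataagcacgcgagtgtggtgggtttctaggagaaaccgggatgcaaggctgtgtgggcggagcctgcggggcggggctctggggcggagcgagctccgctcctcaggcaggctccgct
Angptl6 (chr9:20879711-20879960): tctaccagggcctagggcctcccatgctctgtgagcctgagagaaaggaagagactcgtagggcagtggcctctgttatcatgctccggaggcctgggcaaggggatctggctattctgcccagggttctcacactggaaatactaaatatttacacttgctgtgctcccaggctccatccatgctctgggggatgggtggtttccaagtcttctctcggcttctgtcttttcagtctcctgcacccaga
Fgf21 (chr7:45615491-45615740): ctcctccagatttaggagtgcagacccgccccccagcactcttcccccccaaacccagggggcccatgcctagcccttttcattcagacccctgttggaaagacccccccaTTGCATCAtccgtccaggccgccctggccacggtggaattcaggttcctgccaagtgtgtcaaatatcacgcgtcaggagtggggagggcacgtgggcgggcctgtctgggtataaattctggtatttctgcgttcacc
The match in Nmb began 180 bases before the start site, and that in Fgf21, on the opposite strand, 139 bases before it. These letters occurred in 3.97% of all 32851 promoter windows, which are 300 bases long because they also hold 50 bases after the start. No window of a member gene held AANATGGC, the letters searched here for the YY1 motif, on either strand, and 6.05% of all windows did. Shorter forms of that motif were not searched. TGACGTCA, the cAMP response element (1.79% of windows), and the PPAR direct repeat, AGGTCA repeated with any base between (0.0396%), were absent from the members' windows too. CACGTG, the E-box (7.15%), was present upstream of Fgf21 and in 1 of the 2 windows of Gdf15. These are matches of letters and show no binding.

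Array quality and the labels were checked first. Yy1 gave log2 differences from -0.24 to -0.07 over its 4 probe sets, YY1bKO minus control. The brightest of them read 1287.5, 1469.7 and 1568.2 on control arrays, against 1118.1, 1357.5 and 1179.3 on YY1bKO arrays (limma adjusted p = 0.609). Only cells with Ucp1 promoter activity can lose Yy1, and whether the probe sets lie in the deleted part is not stated in the labels. Ucp1 rose from 42.1 to 51.5 in the controls to 1610.2 to 2062 in YY1bKO (adjusted p = 2.53e-04). Adipocyte markers, 8 of 10 measured, were above the lower quartile of intensities on all arrays. Other tissue differed between arrays. B lymphocyte markers (7 of 8 measured) summed to 379.9, 3877.1 and 10187 in the controls, against 347.2, 4972.6 and 1816.1 on YY1bKO arrays. Epithelial and mammary markers summed to 10641 on control replicate 2, against 308.2 to 551.7 elsewhere, with Krt14 alone at 5585.1. Krt8, Krt18, Krt5, Epcam, Cdh1 and Elf5 were also highest there. Krt19 (19.5) and the milk genes Wap (28.8) and Csn3 (13.5) were not raised there. The milk genes Csn2 and Lalba were below the lower quartile on all arrays. YY1bKO replicate 1 had high skeletal muscle markers (4383.2, against 482.8 to 1809.1; Myh2 below the lower quartile).

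**Figure D1:**
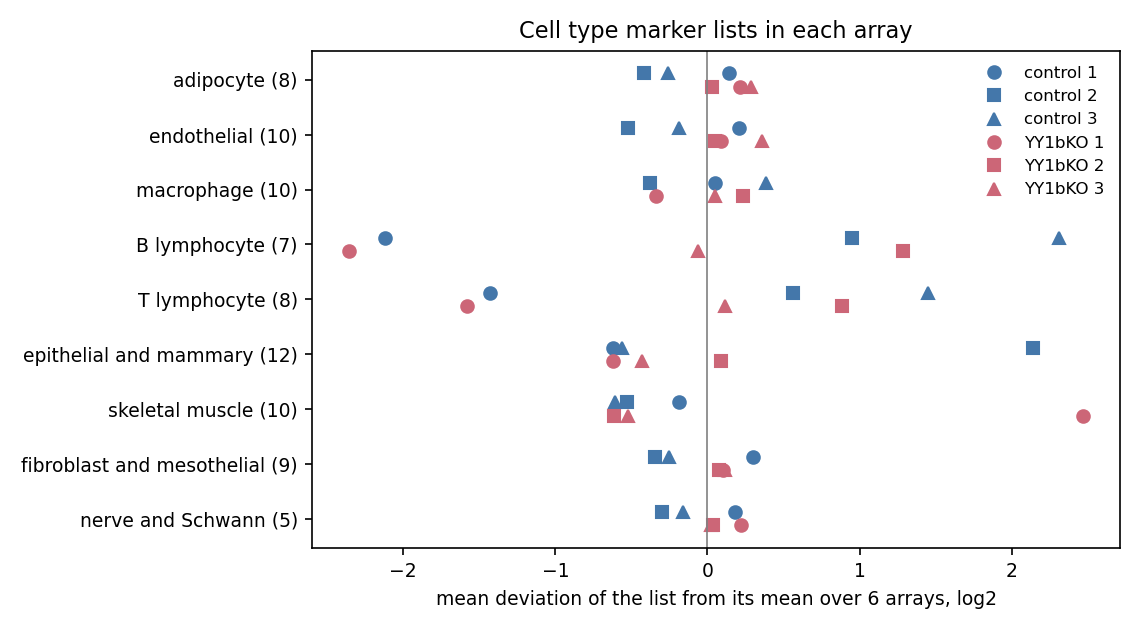
Mean log2 deviation of each marker list from its own mean over the 6 arrays (x axis), by cell type (y axis, measured genes in brackets), with a symbol for each array. B and T lymphocyte markers separate replicate 1 of both groups from the other arrays, control replicate 2 stands out in epithelial markers and YY1bKO replicate 1 in muscle markers.

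In YY1bKO fat 4 of the 13 member probe sets had higher intensities in every YY1bKO array than in any control array: the unannotated probe set, Nrg4, Nmb and Angptl6. Of these 13 probe sets 0 passed an adjusted p of 0.05 in limma, which tested 22626 probe sets after the array's controls were left out and called 11 of them (0.0486%), all higher in YY1bKO. At an unadjusted p under 0.05, 4 of 13 members were higher and 0 lower, against 7.46% of all probe sets higher and 2.06% lower (9.52% in either direction). The groups did not overlap in the same 4 members, all higher, against 10.3% of all probe sets higher and 5.17% lower (15.5% in either direction). Without the unannotated probe set both counts were 3 of 12. The members were chosen with earlier results of these data known, so these counts are no independent test. Across the members 9 of 13 differences were positive (49.8% over all probe sets), with a median of 0.35 beside 0.00 over all probe sets. Vegfa, Fgfr1 and Klb each counted with 2 probe sets. With 1 probe set per gene 7 of 10 were positive (51% over all genes).

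The unannotated probe set showed the largest difference of the set. Its intensities were 49.4, 45.2 and 54.2 on control arrays, against 100.5, 116 and 127.9 on YY1bKO arrays. The YY1bKO arrays all lay near or above 100 and the controls all near 50, so the groups were well apart. The log2 difference was 1.19 ± 0.13 (SE; 95% confidence interval 0.89 to 1.5; n = 3 per group), a 2.28-fold higher mean, with a limma adjusted p of 0.062. It ranked 23 of 22626 by p-value. The exact 2-sided permutation test over the 6 arrays gave p = 0.1, the smallest that 3 against 3 arrays allow. Leaving out any 1 array moved the difference between 1.11 and 1.28. If this probe set measures Gdf15, the gene lies at chromosome 8, 70629393 to 70632470 (GRCm38.p6). Gfral, its receptor gene, had no probe set with that symbol alone, and Ret, the signalling partner of GFRAL, had a log2 difference of -0.07 ± 0.22 (adjusted p = 0.940).

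Nrg4 (1421681_at; chromosome 9, 55220222 to 55283654), the brown fat neuregulin, read 640.5, 520.5 and 529.3 on control arrays, against 1214.6, 950.2 and 1159.4 on YY1bKO arrays. The lowest YY1bKO array was well above the highest control. Its mean was 1.96-fold higher on the log2(intensity + 1) scale, with a log2 difference of 0.97 ± 0.14 (SE; interval 0.64 to 1.31; limma adjusted p = 0.139, exact permutation p = 0.1). The difference lay between 0.90 and 1.08 with any 1 array left out. Of its receptors, Erbb4 was below the lower quartile in both groups (log2 difference 0.21 ± 0.13). Erbb3 read 744.8 in control replicate 2, the array with high epithelial markers, and 65.2 to 104.8 in the other 5. The 2 probe sets of Erbb3 gave differences of -0.84 and -0.02.

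Nmb (1419405_at; chromosome 7, 80902227 to 80905062), the peptide gene, read 132.5, 137.1 and 151.9 on control arrays, against 224.9, 198.2 and 254.7 on YY1bKO arrays. Controls were tightly grouped and every YY1bKO array was higher. The log2 difference was 0.68 ± 0.12 (SE; interval 0.38 to 0.97), or 1.6-fold, with a limma adjusted p of 0.187 and an exact permutation p of 0.1. Nmbr, the receptor of neuromedin B, had a log2 difference of -0.18 ± 0.14 (adjusted p = 0.745).

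Angptl6 (1424785_at; chromosome 9, 20873808 to 20879822) read 111.3, 92.5 and 100.6 on control arrays, against 147.8, 126.3 and 124.8 on YY1bKO arrays. The groups were apart by a small gap, from 111.3 to 124.8. The log2 difference was 0.39 ± 0.12 (SE; interval 0.10 to 0.67), or 1.31-fold, with a limma adjusted p of 0.381 and an exact permutation p of 0.1. Angptl4, the lipoprotein lipase inhibitor of the same family, was 1 of the brighter probe sets of the array and differed by 0.28 ± 0.13 (adjusted p = 0.567). Its groups were barely apart, from 5911 in the highest control to 5928 in the lowest YY1bKO array. The other probe set of Angptl4 gave 0.02.

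**Figure D2:**
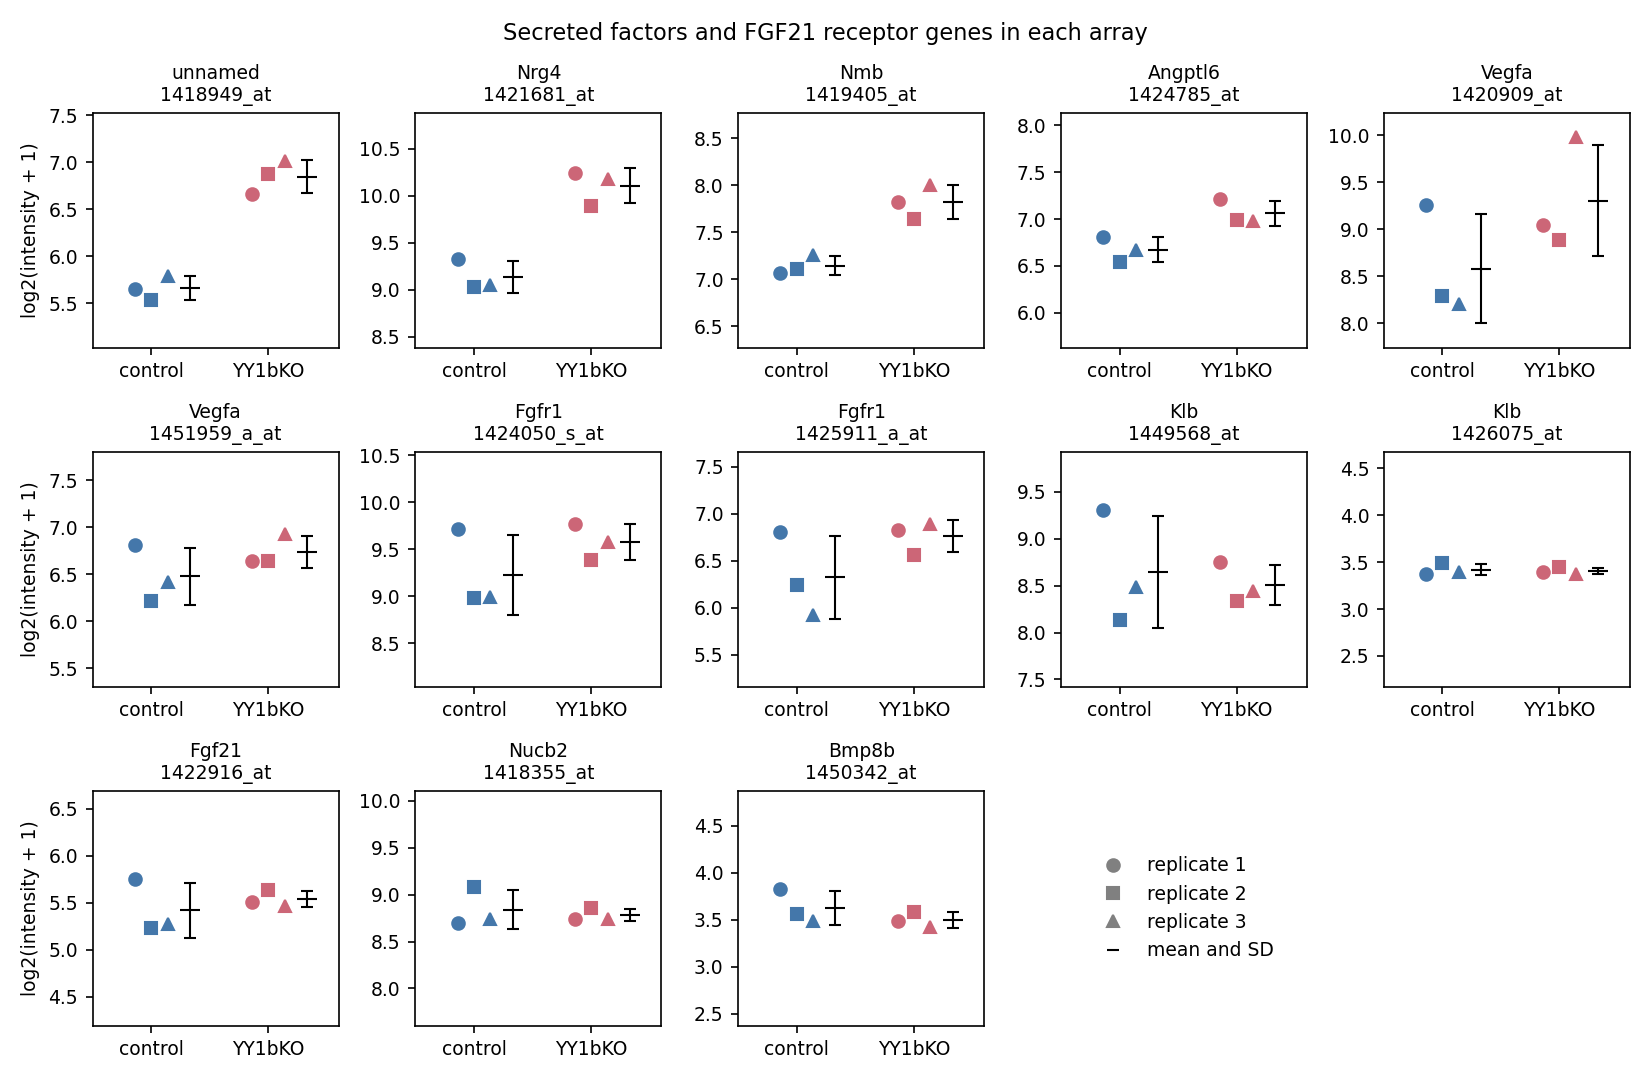
log2(intensity + 1) of each member probe set (y axis, the same span of 2.5 in each panel) in control and YY1bKO arrays, with a symbol for each replicate and the mean with its SD. Groups do not overlap in the unannotated probe set (titled unnamed), Nrg4, Nmb and Angptl6, and control replicate 1 is high in Vegfa, Fgfr1 and 1 Klb probe set.

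Fgf21 itself (1422916_at; chromosome 7, 45613890 to 45615490) was dim, and its groups overlapped. It read 53, 36.5 and 37.7 on control arrays, against 44.7, 48.6 and 43.2 on YY1bKO arrays, where the lower quartile of intensities per array was 29.8 to 31.7. The highest array was a control. The log2 difference was 0.12 ± 0.16 (SE; interval -0.27 to 0.51; adjusted p = 0.859). Without control replicate 1 it was 0.29 (adjusted p = 0.244). Nucb2 (1418355_at), the nesfatin-1 precursor gene, read 412.9, 539.5 and 427.6 on control arrays, against 428.1, 464.4 and 427.8 on YY1bKO arrays. Its difference was -0.05 ± 0.13 (interval -0.36 to 0.25; adjusted p = 0.918), and Nucb1, its paralogue, differed by 0.27 ± 0.13 (adjusted p = 0.572). Bmp8b (1450342_at) lay between 9.7 and 13.2 on all 6 arrays, below the lower quartile of each, so no level above the dimmest probe sets was measured for it. Bmp8a, its neighbouring paralogue, was dim as well, with a difference of 0.08 ± 0.11.

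Control replicate 1 was the highest control in both probe sets of Vegfa and of Fgfr1 and in the brighter probe set of Klb. For Vegfa (chromosome 17, 46016993 to 46032377) the probe set 1420909_at read 609.7, 311.9 and 292.9 on control arrays, against 527, 471.6 and 1008.5 on YY1bKO arrays. Control replicate 1 was above 2 of the 3 YY1bKO arrays, and YY1bKO replicate 3 was far above the other arrays. The log2 difference was 0.72 ± 0.39 (SE; interval -0.23 to 1.67; adjusted p = 0.638). The other Vegfa probe set, 1451959_a_at, read 111.2, 73.2 and 84.4 against 98.7, 98.9 and 120.9, a difference of 0.26 ± 0.18 (adjusted p = 0.720). The 2 probe sets thus had the same direction and differed in size.

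Fgfr1 (chromosome 8, 25518759 to 25575718), the FGF21 receptor gene, showed the same control array as the highest. Its probe set 1424050_s_at read 842.2, 502.1 and 506.3 on control arrays, against 871.2, 667.1 and 764.6 on YY1bKO arrays, and 1425911_a_at read 110.6, 74.8 and 59.7 against 113, 93.7 and 118.1. Both sets overlapped through control replicate 1, which stood above YY1bKO replicate 2, and in the first above YY1bKO replicate 3 too. The differences were 0.35 ± 0.23 and 0.44 ± 0.23 (SE; adjusted p = 0.703 and 0.633). Klb (chromosome 5, 65348411 to 65386957), the co-receptor gene, did not share this direction. Its probe set 1449568_at read 630.4, 280.3 and 358.4 on control arrays, against 429.4, 321.8 and 346 on YY1bKO arrays, a difference of -0.14 ± 0.30 (interval -0.87 to 0.60; adjusted p = 0.915). Without control replicate 1 that difference was 0.19 (adjusted p = 0.600), so its sign depends on that array. The other Klb probe set, 1426075_at, lay between 9.4 and 10.2, below the lower quartile of every array.

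**Figure D3:**
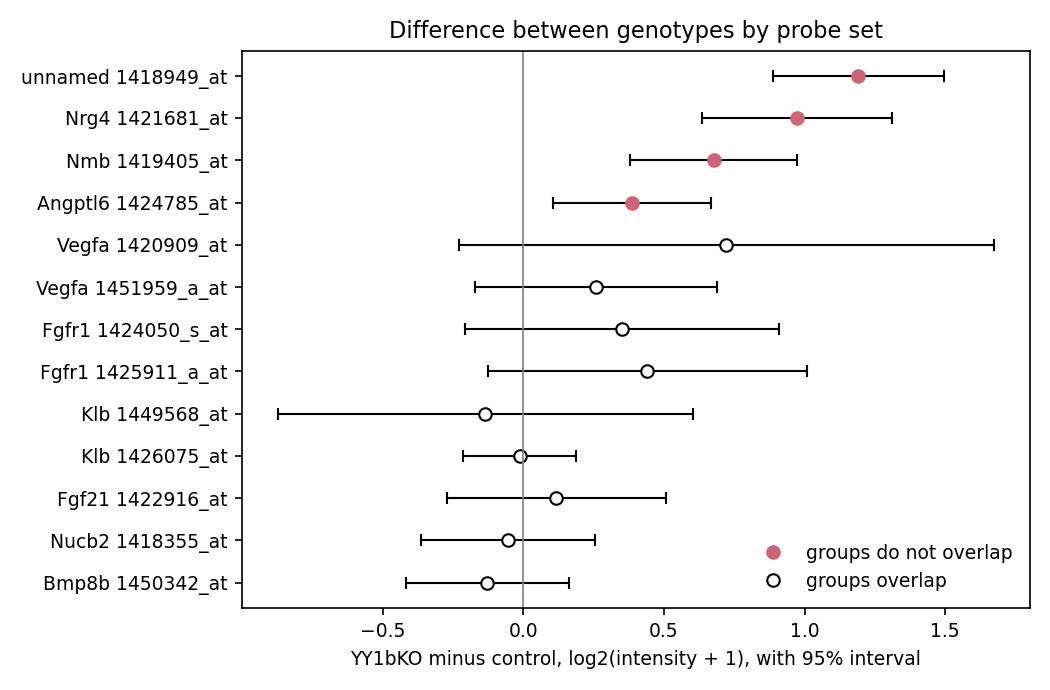
Log2 difference, YY1bKO minus control, of each member probe set (x axis) with its 95% confidence interval from limma (bars). Filled points are probe sets whose groups do not overlap. The intervals of the unannotated probe set, Nrg4, Nmb and Angptl6 lie above 0 and the others include it.

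Control replicate 1 was the highest control in 9 of 13 member probe sets, and it was so in 45.4% of all probe sets. It exceeded the mean of the other controls by a log2 value of 1.01 and 0.50 for Vegfa, 0.74 and 0.72 for Fgfr1 and 0.99 for the brighter Klb probe set. For Nmb and the unannotated probe set it did not (-0.12 and 0.00). In that array B lymphocyte markers were the lowest of the controls and adipocyte markers the highest. Adipocyte markers summed to 85600, 64859 and 70418 in the controls, against 85813, 80789 and 89572 on YY1bKO arrays, with 7 of 8 higher in YY1bKO and 0 past the threshold. Endothelial markers, all 10 measured, summed to 7716.8, 4545.5 and 5853.4 against 6861.9, 6889.5 and 8517.2. Their part in the differences was not tested, and in whole tissue fewer cells of a type and less RNA per cell cannot be told apart.

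The count of members at an unadjusted p under 0.05 depended on single arrays. Without control replicate 1 it was 9 of 13, against 17.2% of all probe sets, and without YY1bKO replicate 1 it was 3, against 5.98%. Without both of those arrays it was 8, against 11.2%, and without control replicate 2 and YY1bKO replicate 1 together it was 3, against 5.3%, alternatives chosen after seeing the data. In these fits 0 of the 13 passed the adjusted threshold. The 9 without control replicate 1 held both probe sets of Vegfa and both of Fgfr1. In that fit the differences were 1.06 and 0.42 for Vegfa (adjusted p = 0.234 and 0.235) and 0.60 and 0.68 for Fgfr1 (adjusted p = 0.161 and 0.162). Those of the unannotated probe set and Nrg4 in that fit were 1.19 and 1.07, each with an adjusted p of 0.129.

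Genes of FGF receptors and their signalling showed no calls in limma. Of 19 measured genes, 6 were higher and 13 lower (51% of all genes were higher), with 0 past the adjusted threshold and 0 at an unadjusted p under 0.05, and a median of -0.14 beside 0.00 over all 12393 genes. Of those genes 8.6% were higher and 2.11% lower at that p, and 0.0484% passed the adjusted threshold, 1 probe set standing for each gene. The groups did not overlap in 3 of the 19, all lower, against 11.5% of all genes higher and 5% lower. The 4 with the smallest p were Etv4 (-0.23), Junb (-0.54), Dusp6 (-0.29) and Egr1 (-0.43), with limma adjusted p from 0.547 to 0.632. In their brightest probe sets the other receptors Fgfr2 (-0.08 ± 0.37), Fgfr3 (-0.08 ± 0.22) and Fgfr4 (0.02 ± 0.13) differed by less than their errors. The other probe set gave -0.17 for Fgfr2 and 0.23 for Fgfr3, and the 5 of Fgfr4 ran from -0.14 to 0.02. Among 22 FGF ligand genes 14 lay below the lower quartile in both groups, and the smallest p belonged to Fgf10, a mesenchymal factor of adipocyte precursors (0.62 ± 0.27, adjusted p = 0.544). Fgf1, a ligand that fat induces on feeding, differed by -0.29 ± 0.22.

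The families of the other factors held 0 genes past the adjusted threshold in limma. In the neuregulin and EGF family list, 11 of 14 genes were measured, and 2 were higher and 1 lower at an unadjusted p under 0.05. Over all genes 8.6% were higher and 2.11% lower at that p. Btc, betacellulin, a ligand of EGFR and ERBB4, read 93.9, 113 and 100.7 on control arrays, against 151.3, 321.1 and 323.8 on YY1bKO arrays, a difference of 1.29 ± 0.31 (adjusted p = 0.291; the other probe set gave 0.68). Hbegf, another EGFR ligand, read 97.4, 148.3 and 61.7 against 57.7, 41.4 and 54.6 (-0.91 ± 0.32, adjusted p = 0.460; the other probe set gave -0.44). Its highest array was control replicate 2, which had high epithelial markers, and with any 1 array left out the difference ran from -1.23 to -0.60. Among 10 VEGF ligands and receptors 8 were higher, beside 51% of all genes, with a median of 0.26. All 10 endothelial markers, of which Kdr is also in this list, were higher in mean in YY1bKO, with 0 past the adjusted threshold, and their part in the list's values was not tested. Vegfb, a ligand of FLT1, read 584.8, 430.1 and 467.7 against 831.1, 596.3 and 694.8 (0.52 ± 0.17, adjusted p = 0.430), and Nrp2, a co-receptor, was lower (-0.47 ± 0.13, adjusted p = 0.327). The receptors Kdr (0.37 ± 0.26) and Flt1 (0.20 ± 0.18, with 3 probe sets from -0.20 to 0.20) had overlapping groups.

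Of 29 BMP pathway genes 15 were higher, beside 51% of all genes, with a median of 0.01. At an unadjusted p under 0.05 in limma, 2 were higher and 2 lower. Over all genes 8.6% were higher and 2.11% lower at that p, which are the shares for the lists below too. Bmp4, which commits precursors to fat, read 152, 119 and 139.2 against 180.6, 184.1 and 246.1 (0.56 ± 0.16, adjusted p = 0.358). Bmp6 followed (0.63 ± 0.23, adjusted p = 0.474), while Acvr1b (-0.43, with the other probe set at 0.02) and Smad1 (-0.26, with the other at -0.04) were lower. Bmpr1a (-0.23), Bmpr2 (-0.02) and Acvr1c (0.20), receptor genes for BMP ligands and relatives, had overlapping groups. In the TGF-beta family list Tgfb3 (0.53) and Gdf5 (0.26) were higher at an unadjusted p under 0.05, of 11 measured (adjusted p = 0.491 and 0.514). Of 9 angiopoietin and 9 neuromedin and nesfatin genes, Angptl6 and Nmb were the genes at that p. Among 21 other secreted factors of brown and beige fat, Nampt, the NAD-making enzyme that is also secreted (0.64 ± 0.16, adjusted p = 0.300), and Sfrp5, a WNT antagonist (0.38 ± 0.15, adjusted p = 0.491), were at that p, and the list's median was -0.02.

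Genes of the amino acid and mitochondrial stress response, which is known to induce Fgf21 and Gdf15, were measured for all 22 listed. Of these, 12 were higher in YY1bKO and 10 lower (51% of all genes were higher). Lower ones included Nupr1 (-0.97 and -0.88 over its 2 probe sets), Slc7a5 (-0.53), Cth (-0.43) and Atf3 (-0.42). At an unadjusted p under 0.05, 7 were higher and 0 lower, beside 8.6% higher and 2.11% lower over all genes. The median was 0.05 and 0 passed the adjusted threshold. Trib3, a pseudokinase induced by ATF4 and CHOP, read 119.8, 97.6 and 90.2 on control arrays, against 169.2, 210.6 and 213.2 on YY1bKO arrays (0.94 ± 0.15, adjusted p = 0.161; the other probe set gave 1.39). Asns, asparagine synthetase, read 789.4, 610 and 547.1 against 1200.3, 998.8 and 1307.2 (0.86 ± 0.17, adjusted p = 0.232). Chac1, which degrades glutathione, differed by 1.17 ± 0.35, Ddit3, the gene of CHOP, by 0.44 ± 0.11, and Atf5 by 0.63 ± 0.19. Eif4ebp1 (0.57 ± 0.11) and Pck2 (0.54 ± 0.12) were the others, and the brightest of 3 probe sets of Atf4 differed by 0.08 ± 0.11, over a range from -0.34 to 0.08. The member genes with a match to the ATF4 and C/EBP letters upstream, Nmb and Fgf21, had the differences of 0.68 and 0.12 given above. In the thermogenic list 9 of 13 measured genes were higher at that p (8.6% of all genes), with Ucp1 and Fabp3 past the adjusted threshold (0.0484% of all genes) and a median of 0.97.

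**Figure D4:**
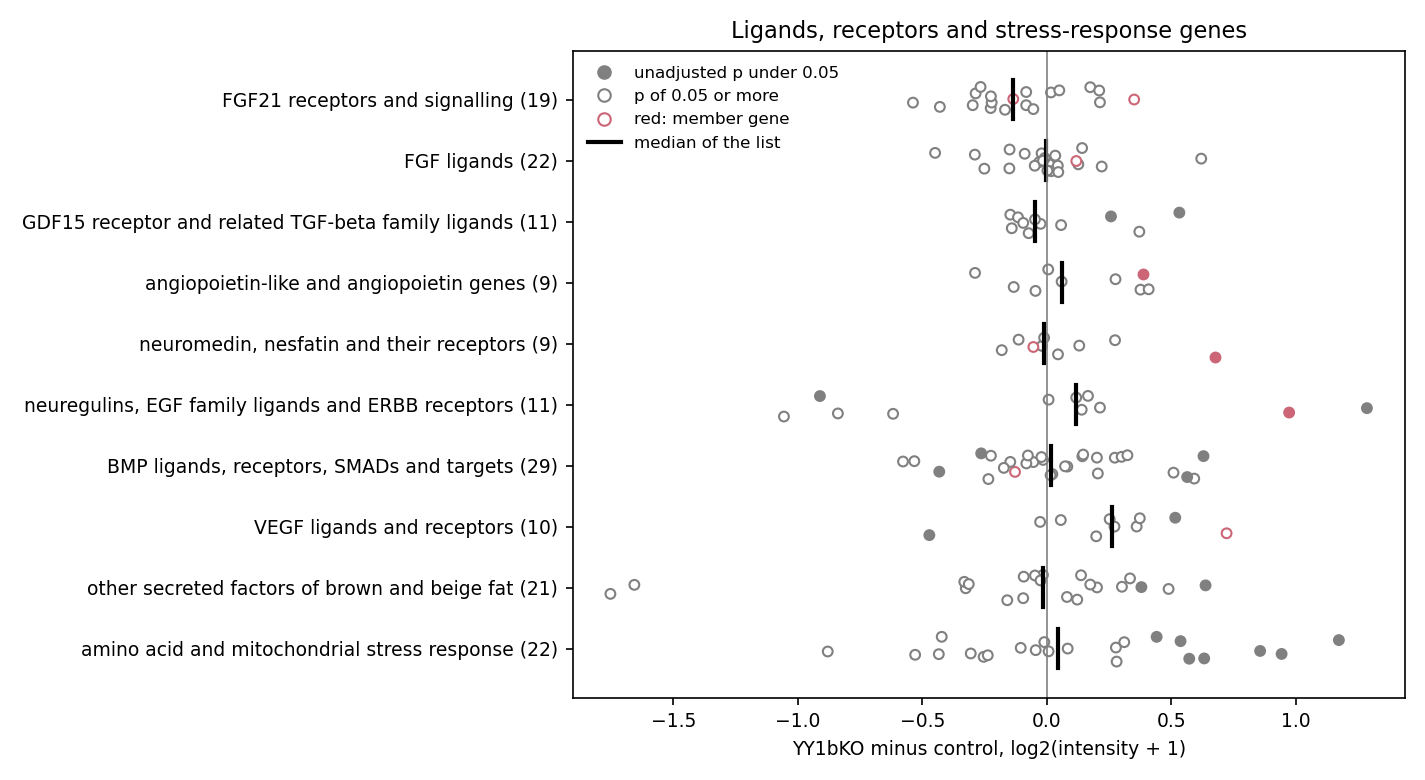
Log2 difference, YY1bKO minus control (x axis), of each measured gene in 10 lists of ligands, receptors and stress-response genes (y axis, measured genes in brackets). Filled points have an unadjusted limma p under 0.05, red points are member genes and black bars are list medians. The medians lie between -0.14 and 0.26.

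Among 12393 genes, those whose log2 values over the 6 arrays correlated most with the unannotated probe set were Elmod3, Wdr13, Txnip, Trmt10a and Acsm3 (Pearson r from 0.988 to 0.997). For Nrg4 they were Coq10a, Rhbdl1, Ndufa1, BC029722 and Acsf3 (0.995 to 0.999). These points share the 2 genotypes and the arrays' differences in tissue content, and 121 genes had r above 0.95 with the unannotated probe set and 284 with Nrg4. Acsm3, a medium chain acyl-CoA synthetase, rose in YY1bKO (1.32, adjusted p = 0.0449), and the other 9 did not pass.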

How the data were processed

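RNA was extracted with Trizol, made into biotin-labelled complementary RNA and hybridised to Affymetrix arrays, per the labels' protocols. Intensity values of probe sets were deposited, made by the authors with RMA, per the submitters' processing notes, with no version named. Their linear scale was read from the range of the values, 5.4 to 25730. RMA makes arrays alike in distribution. It can compress differences of dim probe sets, which was not measured here.

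All 22626 probe sets other than 64 array controls were tested as log2(intensity + 1) with limma 3.58.1 (lmFit, eBayes) in R 4.3.3, YY1bKO minus control, with Benjamini-Hochberg adjustment and a threshold of 0.05. All p-values are 2-sided, on 6.23 total degrees of freedom. Of these probe sets 20380 had 1 gene symbol, 691 several and 1555 none, and only the first were named. For gene lists the probe set with the highest mean stood for each gene. The genes named were all members, their listed partners, up to 4 list genes with the smallest p, and the 5 genes most correlated with the unannotated probe set, with Nrg4 added. In the stress-response list Chac1, Ddit3, Atf5, Atf4, Nupr1, Slc7a5, Cth and Atf3 were named outside this rule. The members and lists were chosen with earlier results of these data known. The step was tested on simulated data. Promoter windows came from RefSeq (GRCm38.p6). Spearman correlations between arrays were 0.957 to 0.994. They were 0.959 to 0.971 within the controls, 0.983 to 0.994 within YY1bKO and 0.957 to 0.991 between the genotypes. The control arrays were thus no more alike than many pairs of unlike genotype. Alternatives covered the unit tested, pseudocount, normalization, dim filters, variance model, weights, the replicate block and left-out arrays.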

Additional observations from a re-analysis of the deposited data

How the results depend on the processing

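In every alternative tried 0 of the member probe sets tested in it passed an adjusted p of 0.05 by limma. Adjusted p ran from 0.056 to 0.512 for the unannotated probe set, 0.091 to 0.835 for Nrg4, 0.139 to 0.885 for Nmb and 0.177 to 0.987 for Angptl6. Their differences kept their sign in every alternative in which they were tested. The filter at the 50th percentile kept 6 of the 13 members and left out the unannotated probe set and Angptl6. The number of all probe sets past the threshold was 11 and moved to 4 with 1 probe set per gene, 6 with the mean of a gene's probe sets, 5 with array medians subtracted, 7 without probe sets below the 25th percentile, 23 with array weights, and 1 to 7 with 1 array left out. It was 2 without control replicate 1 and YY1bKO replicate 1 and 1 without control replicate 2 and YY1bKO replicate 1, alternatives chosen after seeing the data. With fewer genes or arrays the test changes by construction, and for the other settings the cause was not tested.

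With the replicate number as a block 1 probe set passed, and the unannotated probe set and Nrg4 each had an adjusted p of 0.243. The deviations of same-numbered arrays correlated by 0.61, 0.11 and 0.024. Control replicates 1 and 2 correlated best with the YY1bKO array of the same number, and control replicate 3 with YY1bKO replicate 2. Whether same-numbered arrays share more than a number was not tested.

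Signs turned where differences were small. With 1 array left out the difference ran from -0.033 to 0.020 for Klb 1426075_at, from -0.39 to 0.19 for Klb 1449568_at and from -0.13 to 0.066 for Nucb2. It was 0.027 and 0.085 for 1426075_at and Nucb2 without control replicate 2 and YY1bKO replicate 1, and 0.074 for 1449568_at without control replicate 1 and YY1bKO replicate 1. With 3 arrays a group, the dimness of Bmp8b and 1426075_at and the doubt about the gene of the unannotated probe set limit what can be read from them.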
